A study of Mus musculus with 13 samples.

Results

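Transcripts of the MHC class II antigen presentation pathway were examined in T cells sorted from mouse tumors. Members were chosen by gene symbol, as H2-Aa, H2-Ab1, H2-Eb1, Cd74, H2-DMa, H2-DMb1, H2-Oa, H2-Ob and Ciita, and all 9 were found among the 12963 genes of the expression table. B16-F10 melanoma cells had been implanted under the skin of adult Foxp3-EGFP-DTR mice of both sexes, and tumor T cells were enriched and sorted on TCRβ, on CD4 or CD8, and on EGFP. All animals carried this allele, in which EGFP and the human diphtheria toxin receptor are expressed from the endogenous Foxp3 locus, so that diphtheria toxin (DTx) kills Foxp3-expressing regulatory T (Treg) cells throughout the mouse and not only in the tumor. There were 5 groups. Mice given PBS yielded CD4+ conventional T (Tconv) cells (CD4 PBS, n = 2), Treg cells (Treg PBS, n = 3) and CD8+ Tconv cells (CD8 PBS, n = 2), and mice given DTx yielded CD4+ (CD4 DTx, n = 3) and CD8+ Tconv cells (CD8 DTx, n = 3). Replicates were isolated on different days, and the PBS-treated Tconv groups held replicates 2 and 3.

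MHC class II molecules are heterodimers that present peptides from the endocytic route to CD4+ T cells. H2-Aa and H2-Ab1 encode the alpha and beta chains of I-A, and H2-Eb1 encodes the beta chain of I-E, whose alpha chain gene is not expressed in mice of the b haplotype. The invariant chain, encoded by Cd74, escorts new dimers to endosomes, where H2-DM (H2-DMa with H2-DMb1 or H2-DMb2) exchanges its remnant for peptide and H2-O (H2-Oa with H2-Ob) restrains H2-DM. Transcription of most of these genes depends on CIITA, a coactivator without DNA binding of its own that is recruited by RFX, CREB and NF-Y on the X and Y boxes of their promoters. B cells, dendritic cells and macrophages are the usual sources of these transcripts, and conventional T cells of the mouse are generally held to make little class II.

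The promoters are shown first, because CIITA acts on class II genes through X and Y boxes. The motifs below are sequence matches, and whether CIITA acts at them was not tested. RefSeq promoter windows of GRCm38.p6, reaching from 250 bases before to 50 bases after an annotated start, were given for 6 members, and 5 of these held the motif GNAAC followed on the same strand, 30 to 33 bases further on, by ATTGG. The first stands for the core of the X box and the second for the Y box, an inverted CCAAT, and both are in capitals in the 5 sequences below, each read 5′ to 3′ along its gene.
H2-Aa: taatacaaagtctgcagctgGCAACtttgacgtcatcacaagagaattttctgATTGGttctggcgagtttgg
H2-Eb1: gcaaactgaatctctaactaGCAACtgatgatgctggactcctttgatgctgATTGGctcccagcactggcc
H2-DMb1: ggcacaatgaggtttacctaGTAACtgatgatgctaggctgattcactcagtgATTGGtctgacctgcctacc
H2-Oa: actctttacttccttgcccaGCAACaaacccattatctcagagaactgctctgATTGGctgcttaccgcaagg
H2-Ob: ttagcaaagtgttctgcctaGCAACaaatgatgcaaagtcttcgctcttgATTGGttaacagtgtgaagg
These stretches lie at chr17:34287852-34287924 on the minus strand for H2-Aa, and on the plus strand at chr17:34305756-34305827 for H2-Eb1, chr17:34153077-34153149 for H2-DMb1, chr17:34092283-34092355 for H2-Oa and chr17:34238798-34238867 for H2-Ob, all upstream of the start. The reads themselves had been aligned to mm9, so these positions belong to another build than the expression values.

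The longer motif AGCAAC was searched first, on both strands, and was followed by ATTGG at 20 to 50 bases in H2-Eb1, H2-Oa and H2-Ob. GNAAC was taken up after the sequences had been seen. Among all 32851 promoter windows of the table, 14.8% held AGCAAC, 84.8% held GNAAC and 37.4% held ATTGG on either strand. The ordered pair within 20 to 50 bases was found in 0.502% of windows with AGCAAC and in 4.93% with GNAAC. Both H2-DMa windows, 1 for each of 2 annotated starts, lacked the ordered pair. H2-Ab1, Cd74 and Ciita are named only.

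**Figure D1:**
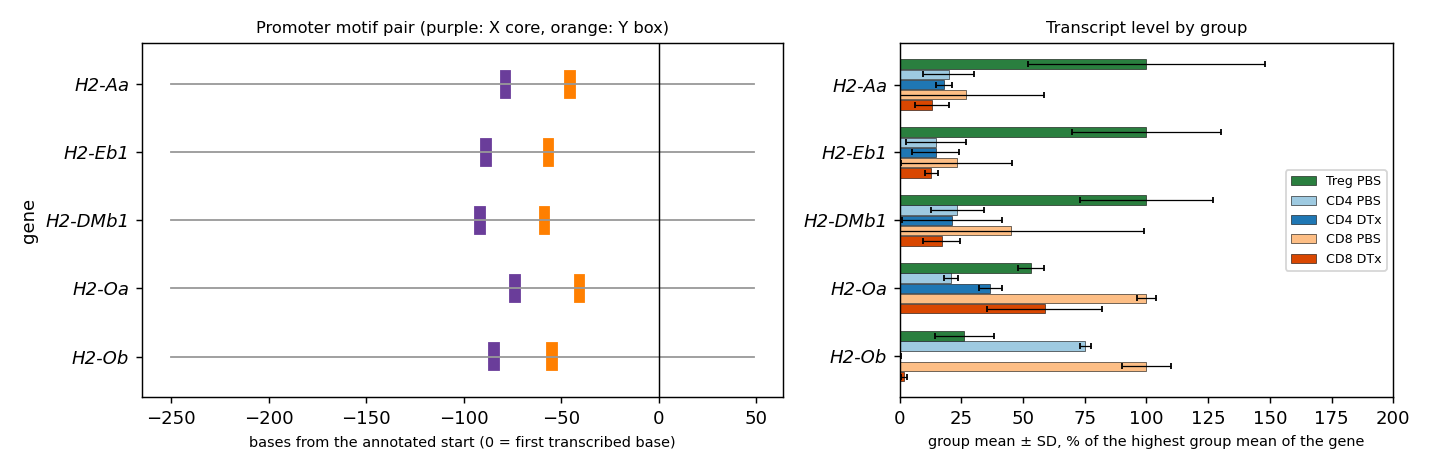
Left, position of the X core (purple) and Y box (orange) in 5 promoters, in bases from the annotated start, with lines for the window searched. Right, the group mean of each transcript with its SD (n = 2 or 3 libraries) as a percentage of the gene's highest group mean: H2-Aa, H2-Eb1 and H2-DMb1 were highest in Treg PBS, H2-Oa in CD8 PBS, and H2-Ob in CD8 PBS with CD4 DTx and CD8 DTx near 0.

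Values are called normalized reads: the deposited numbers are read counts divided by 1 factor per library, with 1 read worth 0.661 to 1.37 units. The libraries held between 15947556 and 34140486 recovered reads, and 3 reads, taken as the detection floor, came to between 1.98 and 4.10 normalized reads. T cell identity was clear, since all 8 T cell markers were detected in all 13 libraries, with summed levels of 132542 to 212761 normalized reads. Because the members had been chosen with earlier results of these data in view, their levels and differences are given as a description without p-values.

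Cd74 set Treg cells apart. The 3 Treg PBS libraries held 22176, 23197 and 19226 normalized reads of Cd74. CD4 PBS held 1480.0 and 901, and CD8 PBS held 2822 and 832. After DTx the values were 655, 1769.9 and 1719.9 in CD4 and 504, 1428 and 888 in CD8. All Treg libraries thus lay far above all others, and among the other 4 groups neighbors in level overlapped. The Treg PBS mean of 21533 ± 2062 (SD, n = 3) was 18.1-fold that of CD4 PBS (1190.5 ± 409, n = 2), 11.8-fold that of CD8 PBS, 15.6-fold that of CD4 DTx and 22.9-fold that of CD8 DTx. In bulk libraries, fewer cells of a type and less RNA per cell cannot be told apart, so these values are averages over the sorted cells.

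The 3 chain genes had the same order at lower reads. Treg PBS held 1709, 3399 and 1561 normalized reads of H2-Ab1, CD4 PBS held 568 and 187, and CD8 PBS held 796 and 156. In the DTx groups it was at 58.9, 417 and 433 in CD4 and at 303, 490.2 and 324 in CD8. The lowest Treg library was above the highest library of any other group, while CD4 PBS, CD8 PBS and both DTx groups overlapped. H2-Aa, the partner chain, was at 837, 1471 and 573 in Treg PBS. CD4 cells held 261 and 121 with PBS and 149, 161 and 205 with DTx, and CD8 cells held 474 and 45.3 with PBS and 53.6, 186 and 136 with DTx. All of its DTx values lay within the range of the PBS values of the same cell type. H2-Eb1 was at 743, 1155 and 680.4 in Treg PBS. CD4 cells held 201 and 51.5 with PBS and 203, 38.9 and 133 with DTx, and CD8 cells held 335 and 61.3 with PBS and 91.5, 134 and 105 with DTx. For both genes, too, only the Treg libraries stood apart, and neighbors among the other 4 groups overlapped. Mean levels in Treg PBS were 5.89-fold (H2-Ab1), 5.03-fold (H2-Aa) and 6.81-fold (H2-Eb1) those in CD4 PBS.

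The chain genes did not keep a fixed proportion to Cd74. There were 6.82 to 12.98 normalized reads of Cd74 for each of H2-Ab1 in Treg PBS, 2.60 to 4.82 in CD4 PBS, 3.97 to 11.1 in CD4 DTx, 3.55 to 5.33 in CD8 PBS and 1.66 to 2.91 in CD8 DTx. The Treg range was above those of CD4 PBS, CD8 PBS and CD8 DTx and overlapped that of CD4 DTx. H2-Ab1 per H2-Aa, by contrast, ran from 2.04 to 2.72 in Treg PBS, which overlapped the range of every other group (0.396 to 5.66 in all).

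Ciita, the coactivator of the pathway, was at 264, 211 and 141 normalized reads in Treg PBS. No read of it was recovered in either CD4 PBS library or in replicates 1 and 3 of CD4 DTx, whereas CD4 DTx replicate 2 held 28.6. CD8 PBS held 30.4 and 0, and CD8 DTx held 15.7, 20.2 and 36.3. Treg PBS was again separate from every other group, at 206 ± 61.7 (SD, n = 3). Against the floor of 3 reads per library, its mean was at least 50.1-fold higher than in CD4 PBS. Over the 3 CD4 DTx libraries the gene had 28 reads, all from 1 library, against 627 over the 3 Treg libraries. Exons of Ciita, H2-DMa and H2-Oa overlap a gene on the opposite strand, Dexi, Brd2 and BC051537 respectively, in the GENCODE annotation, and without a stated strand setting reads of such partners cannot be told apart.

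**Figure D2:**
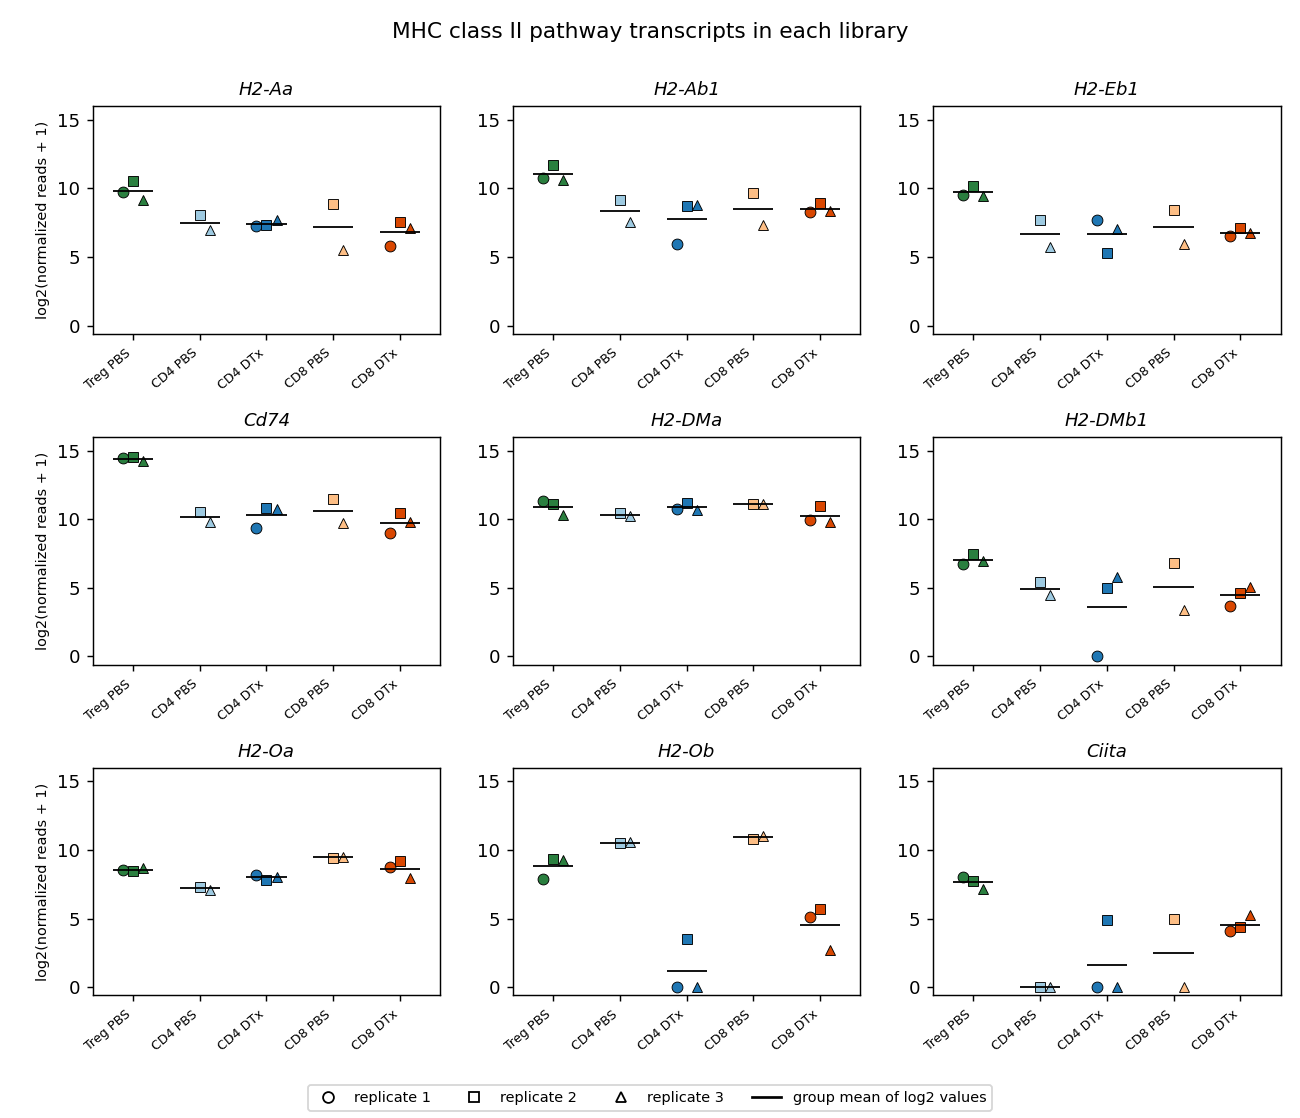
Level of each member in every library, as log2(normalized reads + 1), by group, with a symbol for each replicate number and a line at the group mean of the log2 values. Treg PBS stands above all others for H2-Aa, H2-Ab1, H2-Eb1, Cd74 and Ciita. H2-Ob is high in both PBS-treated Tconv groups and near 0 in CD4 DTx.

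The peptide editor H2-DM divided between its chains. Treg PBS held 2509.7, 2251 and 1274 normalized reads of H2-DMa. CD4 cells held 1359.7 and 1184 with PBS and 1739, 2282 and 1609 with DTx, and CD8 cells held 2171 and 2233 with PBS and 982, 1944 and 887 with DTx. Every group held at least 887, and Treg PBS overlapped all 4 others. H2-DMb1 was at 104, 173 and 121 in Treg PBS. CD4 cells held 41.0 and 21.1 with PBS and 0, 30.7 and 54.0 with DTx, and CD8 cells held 111 and 9.33 with PBS and 12.01, 23.1 and 32.3 with DTx. Treg libraries were above both CD4 groups and CD8 DTx for this chain, and CD8 PBS replicate 2 fell within their range. H2-DMb1 has a near-identical neighbor, H2-DMb2, which held 33.7 to 242 normalized reads over the 13 libraries. Reads shared by these copies drop out when only unique alignments are kept, so the levels of both are uncertain.

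H2-Ob, the beta chain of the H2-DM inhibitor H2-O, was lowest in Treg cells among the PBS groups and was nearly absent after DTx. It was at 1429 and 1493 normalized reads in CD4 PBS and at 1803 and 2081 in CD8 PBS. Treg PBS held less, at 238, 659.7 and 627. After DTx it was at 0, 10.2 and 0 in CD4 and at 34.2, 52.0 and 5.38 in CD8. No DTx library reached the lowest PBS library. The CD4 PBS mean of 1461 ± 45.2 (SD, n = 2) was 429-fold that of CD4 DTx (3.41 ± 5.90, n = 3), a ratio that rests on 10 reads over 3 DTx libraries, all of them from replicate 2. The CD8 PBS mean of 1942 ± 196 (n = 2) was 63.6-fold the CD8 DTx mean of 30.5 ± 23.5 (n = 3). Treg cells, which were not exposed to DTx here, lay between the PBS and DTx levels of Tconv cells. Ciita differed in its order, being highest in Treg PBS and without a read in either CD4 PBS library.

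H2-Oa, the partner chain of H2-Ob, did not follow it. H2-Oa was at 688 and 726 normalized reads in CD8 PBS, 423, 577 and 248 in CD8 DTx, 366, 346 and 417 in Treg PBS, 289, 224 and 263 in CD4 DTx, and 159.9 and 132 in CD4 PBS. CD8 PBS was the highest group and CD4 PBS the lowest, and only CD8 DTx and Treg PBS overlapped among neighbors in this order. The CD8 PBS mean was 4.84-fold that of CD4 PBS. After DTx, H2-Oa was 1.77-fold higher in CD4 and 1.70-fold lower in CD8, so that the groups did not overlap in either cell type but moved in opposite directions. H2-DMa did the same, with a mean 1.48-fold higher in CD4 DTx than in CD4 PBS and 1.73-fold lower in CD8 DTx than in CD8 PBS.

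A linear model over all 13 libraries (limma, log2(value + 1)) put these differences beside those of all other genes. A call required a change of more than 4-fold and a p-value under 0.05 after Benjamini-Hochberg adjustment. In Treg PBS against CD4 PBS, 4 of 9 members were called and all were higher in Treg cells (Ciita, Cd74, H2-Eb1 and H2-Ab1), where 7.85% of the 12667 genes tested were called higher and 10.2% in either direction. Libraries of the 2 groups did not overlap for 8 members, 7 higher in Treg cells, against 29.2% of all genes, and 1 lower, against 27.4%. The log2 fold change was 4.22 (SE 0.56) for Cd74, 3.02 (SE 0.83) for H2-Eb1, 2.67 (SE 0.87) for H2-Ab1, 2.32 (SE 0.84) for H2-Aa, 2.10 (SE 1.48) for H2-DMb1, 1.36 (SE 0.36) for H2-Oa, 0.61 (SE 0.35) for H2-DMa and -1.66 (SE 1.09) for H2-Ob. Cd74 was called under all 26 alternative settings, H2-Eb1 under 22 and H2-Ab1 under 11. With replicate 2 of Treg PBS, CD4 PBS and CD8 PBS left out, a check chosen after seeing the data, Cd74 alone was called. Without Treg PBS replicate 1, Treg PBS replicate 2 or CD4 PBS replicate 3, only 2 were. Since the members were chosen with this contrast known, nothing is read from these counts.

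DTx was followed by a called change in 1 member in each cell type, H2-Ob. In CD4 DTx against CD4 PBS its log2 fold change was -9.35 (SE 1.09), where 1.79% of all genes were called lower and 6.85% in either direction. In CD8 DTx against CD8 PBS it was -6.41 (SE 1.09), where 1.59% were called lower and 5.46% in either direction. The CD4 call held under all 26 alternatives and the CD8 call under 23, being lost without CD8 PBS replicate 3, with the 3 PBS libraries numbered 2 left out, and in a fit of those groups alone. Cd74, the chain genes and Ciita were not called after DTx in either cell type. Their log2 fold changes ranged from -0.56 (H2-Ab1, SE 0.87) to 1.63 (Ciita, SE 1.60) in CD4 and from -0.83 (Cd74, SE 0.56) to 2.08 (Ciita, SE 1.60) in CD8. Groups did not overlap for 2 members higher in CD4 DTx (23.4% of all genes) and 1 lower (22.9%), and for 3 lower in CD8 DTx (20.8%). No member was called for a difference between the DTx effects of CD4 and CD8 cells by limma, edgeR or DESeq2, where 0.0474% of all genes were called by limma and 2 members had an unadjusted p under 0.05.

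DTx-exposed Tconv cells were also compared with Treg cells. In CD4 DTx against Treg PBS, 5 members were called lower (Cd74, H2-Ab1, H2-Eb1, H2-Ob and Ciita), where 2.45% of all genes were called lower and 4.01% in either direction. In CD8 DTx against Treg PBS, 4 were called lower (Cd74, H2-Aa, H2-Eb1 and H2-Ob), where 2.79% were called lower and 4.93% in either direction. Groups did not overlap for 8 members lower in CD4 DTx (15.2% of all genes) and 7 lower in CD8 DTx (13.9%). Cd74 differed by -4.09 (SE 0.50) in CD4 DTx and -4.64 (SE 0.50) in CD8 DTx on the log2 scale. Both comparisons share the Treg libraries with each other and with the contrast above. The first count fell to 2 or 3 without any 1 of the 3 Treg libraries or without CD4 DTx replicate 1 or 3, and the second to 1 or 2 without any 1 Treg library or without CD8 DTx replicate 1 or 3. Between the PBS-treated Tconv groups 1 member was called, H2-Oa, with a log2 fold change of -2.27 (SE 0.40) in CD4 PBS against CD8 PBS, where 0.742% were called lower and 0.908% in either direction. Groups did not overlap for 3 members, all lower in CD4 PBS (21.7%). The H2-Oa call was lost without any 1 of the 4 libraries compared.

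**Figure D3:**
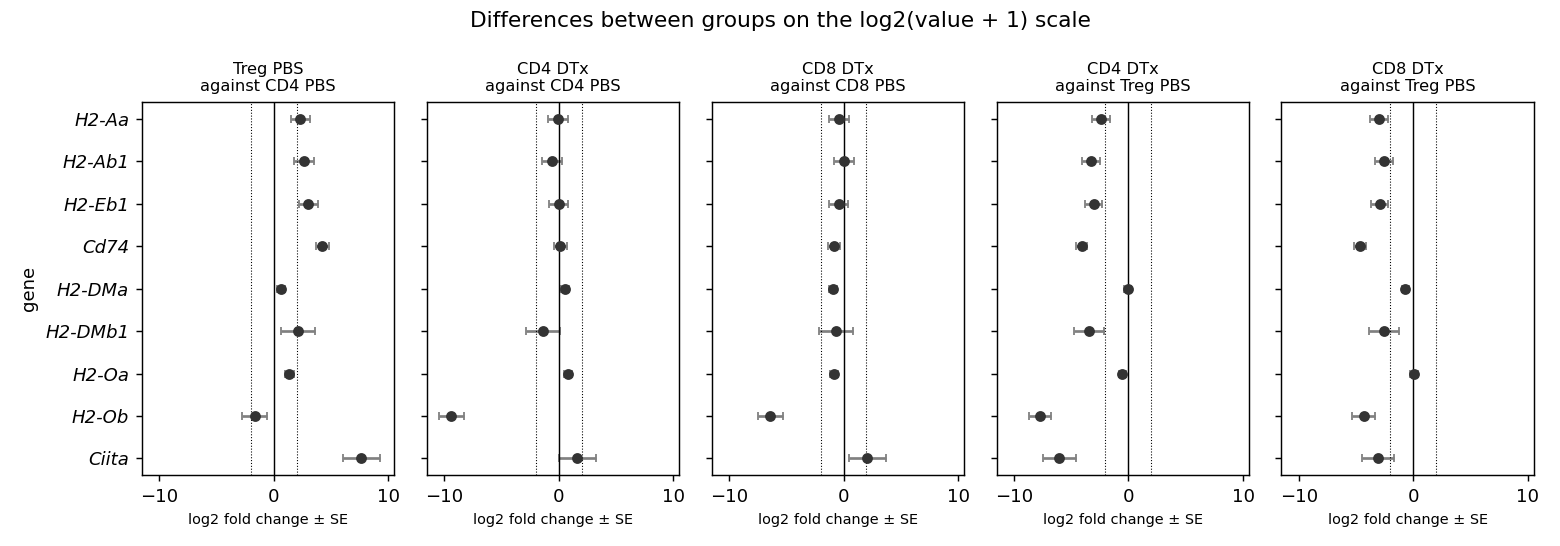
Log2 fold change of each member with its standard error in 5 comparisons, from limma over 13 libraries on log2(value + 1); dotted lines mark 4-fold. Cd74 is at 4.22 in Treg PBS against CD4 PBS and at 0.12 and -0.83 in the CD4 and CD8 DTx comparisons, while H2-Ob is at -9.35 and -6.41 after DTx.

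Markers of cells that make class II were measured in the same libraries, since a sorted fraction can carry RNA of other cells. Of 16 macrophage and monocyte markers, 15 were in the table, and their summed level was 1433 to 4475 normalized reads in Treg PBS, 1737 to 2131 in CD4 PBS, 189.8 to 2338 in CD4 DTx, 934 to 2777 in CD8 PBS and 1919.7 to 2784 in CD8 DTx. Treg PBS thus overlapped all other groups for macrophage markers, and none of the 14 tested was called against CD4 PBS by limma, edgeR or DESeq2, with 0 at an unadjusted p under 0.05. Itgam (513 to 1606) and Cd68 (607 to 1055) were higher in every CD8 DTx library than in any other group. Lyz2 was at 51.0 to 198 there and at 809 to 2493 in Treg PBS. Against Treg PBS, limma called 3 macrophage markers lower in CD8 DTx (Apoe, C1qc and Lyz2) and 0 in CD4 DTx. Of all genes, limma called 2.79% and 2.45% lower in these comparisons. Of the macrophage markers, edgeR called 2 and 0 and DESeq2 called 4 and 0, in either direction. Of 13 B cell markers 12 were in the table, with sums of 519 to 1234 in Treg PBS, 419 to 638 in CD4 PBS, 348 to 645 in CD4 DTx, 1401 to 1845 in CD8 PBS and 487 to 1843 in CD8 DTx. Treg PBS and CD4 PBS overlapped for B cell markers, and Cd79b, a chain of the B cell receptor complex, was the only one called in Treg PBS against CD4 PBS (log2 fold change 3.13, SE 0.64, limma, adjusted p = 0.00497). Of 10 markers of conventional dendritic cells 8 were in the table, with sums of 665 to 1283 in Treg PBS, 99.1 to 261 in CD4 PBS, 624 to 890.2 in CD4 DTx, 285 to 1034 in CD8 PBS and 3545 to 6408 in CD8 DTx. The CD8 DTx sums were mostly Itgax, which activated T cells also express and which was at 2852 to 5785 there. The sum of dendritic cell markers, unlike those of macrophages and B cells, was thus higher in every Treg library than in CD4 PBS. Singly, Zbtb46, Xcr1 and Ccl22 were higher in every Treg library. Cd209a, Flt3, Fscn1 and Itgax overlapped CD4 PBS, and Clec9a was at 0. Only Xcr1 was called (log2 fold change 2.91, SE 0.47, limma, adjusted p = 0.00109). Of 10 B cell markers tested against Treg PBS, limma called Cd79a and Cd79b lower in CD4 DTx and Cd79a lower in CD8 DTx. In the same order, edgeR called 1 and 0 of them and DESeq2 called 2 and 1. Of 6 dendritic cell markers tested, Zbtb46 and Ccl22 were called lower in CD4 DTx and Ccl22 in CD8 DTx. Itgax was called higher in both.

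Single defining markers varied between the Treg libraries. In Treg PBS replicate 1, Ms4a1, Cd209a and Itgax were at 0 and Flt3 at 0.847 normalized reads, with Cd74 at 22176, but Csf1r (199.8), Lyz2 (2493) and the complement genes C1qa (104), C1qb (349) and C1qc (122) were the highest of any library there, as was the macrophage sum of 4475. Treg PBS replicate 2, with the highest Cd74 (23197), also held the highest Ccl22 (269), Cd209a (185), Cd79a (155) and Flt3 (41.2) of the 13 libraries. In Treg PBS replicate 3, Adgre1, Cd209a, Fcgr1 and Itgax were at 0, and Lyz2 was at 809, between the values of 787 and 855 in CD4 PBS, with Cd74 at 19226. Clec9a was at 0 in every library. Zbtb46, a dendritic cell transcription factor, was at 224, 489.6 and 611 in Treg PBS against 76.5 and 17.2 in CD4 PBS. Cd74 came to 4.96 to 13.4 normalized reads for each macrophage marker read in Treg PBS and to 0.423 to 0.852 in CD4 PBS. For B cell markers the ranges were 18.8 to 42.7 and 2.15 to 2.32, and for dendritic cell markers 18.1 to 33.4 and 5.67 to 9.09. Relative to each of these marker sums, Cd74 was thus higher in Treg PBS than in CD4 PBS. Per read of Lyz2 alone, Cd74 was at 8.90 to 23.8 in Treg PBS, 1.05 to 1.88 in CD4 PBS and 1.67 to 2.14 in CD8 PBS. That Treg range overlapped those of CD4 DTx (1.66 to 11.9) and CD8 DTx (2.59 to 28.0). Melanocyte markers, of the tumor cells, summed to 727 to 1197 in Treg PBS and 435 to 448 in CD4 PBS. The part of such cells in the Treg difference was not tested.

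Within the PBS groups, the class II genes and some of these markers peaked in the same library. H2-Aa, H2-Ab1, H2-Eb1 and Cd74 were highest in replicate 2 of Treg PBS, CD4 PBS, CD8 PBS and CD8 DTx. In CD4 DTx they peaked in different replicates. Ms4a1, Cd79a, Flt3 and Cd209a were likewise highest in replicate 2 of Treg PBS, CD4 PBS and CD8 PBS, but all were at 0 in CD8 DTx replicate 2. The sums of the whole lists went another way in that library. Its B cell sum was 1843, with Cd79b at 1296, against 487 and 513 in CD8 DTx replicates 1 and 3. Its macrophage sum was 2784, with Itgam at 1554, against 1919.7 and 2532. Its dendritic cell sum of 5750 lay between 3545 and 6408. Lyz2 and Csf1r peaked in Treg PBS replicate 1 and CD4 PBS replicate 3. In CD8 PBS the macrophage markers peaked together with the class II genes in replicate 2, with Lyz2 at 1321, Csf1r at 82.6 and H2-Aa at 474 there against 497, 0 and 45.3 in replicate 3. The part of these cells in the spread between replicates was not tested.

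**Figure D4:**
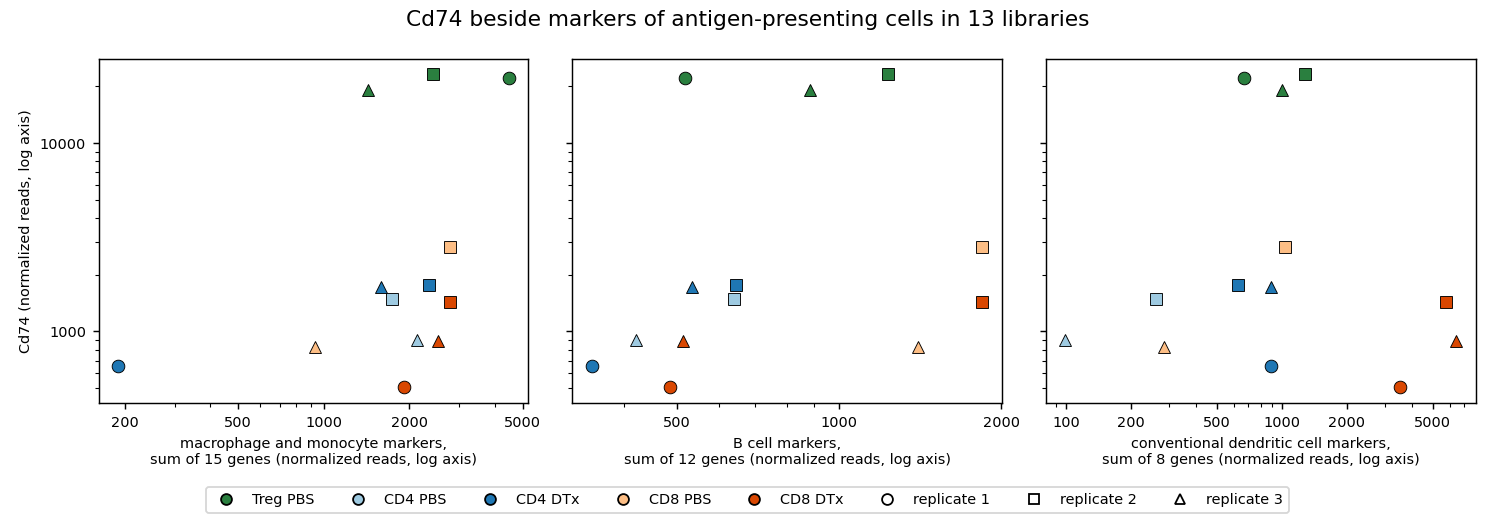
Cd74 in normalized reads against the summed markers of macrophages and monocytes (15 genes), B cells (12 genes) and conventional dendritic cells (8 genes) in 13 libraries, on log axes, with colors for groups and symbols for replicates. Treg PBS libraries lie at 19226 to 23197 normalized reads of Cd74, with marker sums inside the range of the other libraries except the macrophage sum of replicate 1 (4475). For dendritic cell markers the upper end of that range is CD8 DTx (3545 to 6408), and Treg PBS (665 to 1283) lies above CD4 PBS (99.1 to 261).

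Other genes of the pathway were read from lists. The promoter-binding factors (Rfx5, Rfxap, Rfxank, Nfya, Nfyb, Nfyc and Creb1) were all detected in every library, with sums between 8104 and 10859 normalized reads. None of the 7 was called in Treg PBS against CD4 PBS by limma, edgeR or DESeq2, and 1, Nfyb, had an unadjusted p under 0.05. Nfyb, a subunit of NF-Y, was at 2693, 2747 and 2571 in Treg PBS and 1436 and 1839.5 in CD4 PBS, a log2 fold change of 0.72 (limma, SE 0.22, adjusted p = 0.0405) that was under 4-fold. Rfx5 was at 97.9, 124 and 449.6 in CD8 DTx against 446 and 519 in CD8 PBS (log2 fold change -1.44, SE 0.51, limma, adjusted p = 0.0956). These factors were thus present in CD4 PBS libraries in which no read of Ciita was found.

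Endosomal proteases and reductases, which cut antigen and invariant chain, were represented by 7 of 11 list symbols. None was called in Treg PBS against CD4 PBS by limma, edgeR or DESeq2, with 3 at an unadjusted p under 0.05. Ctsb, a lysosomal cysteine protease, was at 46693, 31584 and 29776 in Treg PBS and 10432 and 10291 in CD4 PBS, a log2 fold change of 1.77 (limma, SE 0.29, adjusted p = 0.00113) just under 4-fold. Ctsd, an aspartic protease, had log2 fold changes of 1.55 (SE 0.29, limma, adjusted p = 0.00420) in CD4 DTx and 1.83 (SE 0.29, limma, adjusted p = 0.00257) in CD8 DTx against their PBS groups, also under 4-fold. Ctss, which removes the invariant chain in many presenting cells, was at 7408 to 12000.0 in Treg PBS against 5946 and 5380.5 in CD4 PBS (log2 fold change 0.64, SE 0.24, limma, adjusted p = 0.0796). Lgmn was called lower in CD8 DTx than in Treg PBS (log2 fold change -4.29, SE 0.95, limma, adjusted p = 0.0139).

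For the class I pathway, which presents cytosolic peptides to CD8+ T cells, 11 of 12 genes were in the table and 0 were called in Treg PBS against CD4 PBS by limma, edgeR or DESeq2, with 6 at an unadjusted p under 0.05. The median log2 fold change was 0.67 over these 11 genes, 2.32 over the class II members and 0.01 over all genes tested. B2m, the class I light chain, had a log2 fold change of 1.12 (limma, SE 0.36, adjusted p = 0.0467). After DTx the class I medians were 0.45 in CD4 and 0.35 in CD8, with 0 genes called by limma, edgeR or DESeq2 and 4 and 2 at an unadjusted p under 0.05, beside medians of -0.0012 and -0.64 over the class II members.

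Interferon gamma induces Ciita in many cell types, and 8 genes of its axis were examined. Ifng itself was called higher after DTx, at 2212, 1085 and 1638 normalized reads in CD4 DTx against 297 and 479 in CD4 PBS (log2 fold change 2.06, SE 0.56, limma, adjusted p = 0.0307). It was at 9423, 2672 and 3401 in CD8 DTx against 758 and 681 in CD8 PBS (log2 fold change 2.61, SE 0.56, limma, adjusted p = 0.0116). Ifngr1, the ligand-binding receptor chain, was called higher in Treg PBS than in CD4 PBS (log2 fold change 2.35, SE 0.33, limma, adjusted p = 4.63e-04). Ifngr2, the signaling chain, was called lower there (-2.52, SE 0.80, limma, adjusted p = 0.0434) and in CD8 DTx against CD8 PBS, at 19.4, 47.2 and 12.1 against 645 and 1413 (-5.35, SE 0.80, limma, adjusted p = 0.00187). DTx-exposed Tconv cells held more Ifng, and their class II chain genes, Cd74 and Ciita were not called changed. The errors were wide for Ciita, with log2 fold changes of 1.63 in CD4 and 2.08 in CD8 (SE 1.60 each). A link between Ifng and these genes was not tested.

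Costimulatory ligands of presenting cells were counted as a further list of 6. In Treg PBS against CD4 PBS 3 were called, all higher, where 7.85% of all genes tested were called higher. Cd80 was at 384, 437 and 379 normalized reads against 27.3 and 10.6 (log2 fold change 4.46, SE 1.04, limma, adjusted p = 0.0101). Cd86, the other ligand of CD28 and CTLA-4, was at 2015, 1607 and 1749 against 532 and 332 (log2 fold change 2.08, SE 0.38, limma, adjusted p = 0.00252). Cd70, the ligand of CD27, was at 223, 155 and 105 against 0 in both CD4 PBS libraries (limma, adjusted p = 0.00877). After DTx, Cd70 (limma, adjusted p = 0.0311) and Icosl (2.14, SE 0.61, limma, adjusted p = 0.0373) were called higher in CD4 cells, and Cd80 (3.94, SE 1.04, limma, adjusted p = 0.0315) was called higher in CD8 cells. Activated T cells express these ligands too.

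Of the receptors that bind class II on T cells, Cd4 was at 10595 normalized reads or more in all Treg and CD4 libraries. Lag3, an inhibitory receptor for class II, was at 321, 170.1 and 211 in Treg PBS and 1.37 and 7.93 in CD4 PBS (log2 fold change 5.63, SE 0.92, limma, adjusted p = 0.00112). It was also called higher after DTx, at 26.2, 151 and 183 in CD4 DTx (4.31, SE 0.92, limma, adjusted p = 0.00850) and at 603, 396 and 650.1 in CD8 DTx against 114 and 22.7 in CD8 PBS (3.37, SE 0.92, limma, adjusted p = 0.0355). Xcr1, counted with the dendritic cell markers, was at 316, 278 and 337 in Treg PBS against 73.8 and 21.8 in CD4 PBS. It was higher still after DTx, at 604, 374 and 528 in CD4 DTx and at 657, 604 and 478 in CD8 DTx.

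Members were also compared with one another over the 13 libraries, as a description, with Pearson's r of log2 values. Cd74 went with H2-Aa (r = 0.91) and H2-Ab1 (r = 0.89), and after the group means were subtracted r was 0.83 and 0.89. H2-Ab1 and H2-DMb1 stood at 0.92 in both forms. H2-Eb1 went with Cd74 (r = 0.84) and H2-Ab1 (r = 0.74) before the group means were subtracted, but at 0.32 and 0.25 afterwards, whereas with H2-Aa r was 0.88 and 0.71. Lower r to the other members were found for H2-Ob (0.16 to 0.46), H2-Oa (0.01 to 0.41) and H2-DMa (0.17 to 0.43). Among the markers of other cells, r with Ciita was highest for Csf1r, the macrophage growth factor receptor (r = 0.85, and 0.88 after the group means were subtracted). For the macrophage markers Lyz2 and C1qb it was 0.30 and 0.21, and 0.59 and 0.46 after subtraction. In both CD4 PBS libraries, CD4 DTx replicates 1 and 3 and CD8 PBS replicate 3, Ciita was at 0 and Csf1r at 0 to 7.27. The r with Csf1r thus rests partly on values near the floor. The part of macrophages in the Ciita level was not tested. The 13 libraries are 5 groups, so a Treg difference shared by genes raises r before the group means are removed.

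The genes most like 4 of the members were found in the same way among all genes tested. H2-Ab1 was closest to Slc25a1 (r = 0.96), Cystm1 (0.94), Trdmt1 (0.93), D330023K18Rik (0.89) and Cyb5r3 (0.88). Cd74 was closest to Hacd3 (r = 0.95), C78197, Pigz, Tcn2 and Smarcd3 (each 0.94), which were all highest in Treg PBS. Genes close to Ciita included Chadl (r = 0.96), Ubash3b (0.93), Lyn and Epdr1 (each 0.92). H2-Ob was closest to Mpp1 (r = 0.97), Spaca1 (0.96), Rftn2 (0.96), Sox4 (0.94) and Usp2 (0.94). Sox4, a transcription factor gene, had group means of 615 (CD4 PBS), 213 (CD8 PBS), 35.8 (Treg PBS), 7.30 (CD8 DTx) and 0 (CD4 DTx) normalized reads. These r values are over 13 libraries and rank genes by likeness only.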

How the data were processed

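RNA sequencing libraries had been made by the authors from sorted tumor T cells and run on an Illumina HiSeq instrument. The labels name SmartSeq2 for library preparation, whereas the study's methods name a SMARTer ultra-low-input kit. Per the study's methods and the submitters' processing notes, reads were trimmed with Cutadapt, aligned with hisat2 to NCBIM37 (mm9), and uniquely mapped reads per gene were normalized with an intergenic read step. The read counter and strand setting are not given in the sources used here. The deposited table holds 12963 genes and 13 columns of a normalized signal named FPM. Columns sum to between 2.18e+07 and 2.75e+07, so the values are not on the scale that name stands for. In each library all values (100%) came out as whole reads, within a tolerance of 0.01, once divided by a single step, as counts scaled by 1 size factor do, and these reads were recovered. Symbols of 21 rows had become dates and were not named.

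The 12667 genes that reached 10 normalized reads in 2 or more libraries, among them all 9 members, were fitted with limma 3.58.1 in R 4.3.3 on log2(value + 1), which understates changes of low genes, with 1 mean per group and no covariates. Calls needed an adjusted p under 0.05 and an absolute log2 fold change above 2. The study used DESeq2, which needs counts. DESeq2 1.42.0 and edgeR 4.0.16 were run on recovered reads as alternatives, beside other pseudocounts, filters, scalings, a replicate block and each library left out. Scripts were tested on simulated counts. The members and gene lists were chosen with earlier results of these data known, and some lists overlap what activated T cells express. The named genes are the members, list genes that passed the test or served as markers, and the 5 genes closest to each of 4 members, apart from items not reported here. Depth intervals are not given for means, and floors cover counting error only. Replicates came from separate days per the study, so p-values measure the spread between such isolations. Exons overlapping other genes were read from the GENCODE annotation, and promoter sequences from RefSeq (GRCm38.p6).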

Additional observations from a re-analysis of the deposited data

Results flagged for a closer look

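H2-DMa and H2-Oa moved in opposite directions after DTx in the 2 Tconv cell types. For both genes all CD4 DTx libraries were above both CD4 PBS libraries, and all CD8 DTx libraries were below both CD8 PBS libraries. The DTx effect in CD4 minus that in CD8 was 1.43 (SE 0.50) on the log2 scale for H2-DMa and 1.67 (SE 0.51) for H2-Oa. Neither was called for this difference across all genes, and because the genes were picked with their levels known, the difference is not given as tested.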

How the results depend on the processing

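No member changed its direction where it was called, under any of 26 alternatives. In fits of only the groups compared, members called numbered 0 in CD8 DTx against CD8 PBS, 0 in CD4 PBS against CD8 PBS, 3 in CD4 DTx against Treg PBS and 7 in CD8 DTx against Treg PBS. Without the 3 PBS libraries numbered 2 the counts were 0, 0, 2 and 2 in these comparisons and 1 in Treg PBS against CD4 PBS. With each library left out in turn, the counts ran from 2 to 5 in Treg PBS against CD4 PBS, from 2 to 6 in CD4 DTx against Treg PBS, from 1 to 5 in CD8 DTx against Treg PBS, from 0 to 1 in CD4 PBS against CD8 PBS and from 0 to 1 in CD8 DTx against CD8 PBS. These fits have fewer samples. With the replicate number as a block 5, 6 and 5 members were called in Treg PBS against CD4 PBS, CD4 DTx against Treg PBS and CD8 DTx against Treg PBS, and 1 in each of the other 3 comparisons. The block added H2-Aa in both Treg PBS against CD4 PBS and CD4 DTx against Treg PBS, and H2-Ab1 in CD8 DTx against Treg PBS. Deviations of same-numbered libraries had r = 0.12 for Treg PBS with CD4 PBS, 0.19 for CD4 PBS with CD8 PBS, 0.04 for CD8 DTx with CD8 PBS and -0.34 for CD4 DTx with CD4 PBS. By replicate, r was 0.25, 0.04 and 0.21 for Treg PBS with CD4 DTx, 0.24, 0.0062 and 0.30 for Treg PBS with CD8 DTx, and 0.36, 0.21 and 0.59 between the DTx groups, which were compared only through their DTx effects. Not every pair passed 0.1 in the comparisons made, and the labels do not tie the numbers to days, so the numbers were not taken to pair samples. Scaling to equal totals moved the median of all genes to -0.23 in CD8 DTx against CD8 PBS and -0.18 in CD4 DTx against CD4 PBS (log2).

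Groups of 2 and 3 libraries, and a floor of 1.98 to 4.10 normalized reads, limit these data. Ciita, H2-DMb1 and H2-Ob after DTx lie near that floor in some libraries, and H2-Aa, H2-Ab1 and H2-Eb1 varied several-fold between replicates of CD8 PBS. Transcripts were measured in bulk, so the cells that held them are not known, and no protein was measured here.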
